A study of Capra hircus with 11 samples.

Results

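Cultured ear fibroblasts of the goat (Capra hircus) were described here by the amount of cell division RNA that each cell carried on day 0. Cells were chosen from 1 deposited table, BFRTV0d, in 2 steps. A cell barcode was kept if the UMIs (unique molecular identifiers, counts of distinct captured RNA molecules) of the basal keratins KRT5 and KRT14 summed to at most 2, and it was then placed by the summed UMIs of 4 division markers, MKI67, TOP2A, CDK1 and CENPF. Cells with at least 4 marker UMIs are called cycling here, cells with 1 to 3 intermediate, and cells with 0 marker-negative. The rule gave 1293 cycling, 2909 intermediate and 5534 marker-negative cells out of 9736 that passed the keratin limit, of 10670 barcodes in the table and 41854 in the series. The counts of these cells themselves chose the members, so every difference between the classes is given as a description without a test.

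The series followed goat ear fibroblasts through culture in an induction medium named BFRTV, with 11 samples measured by droplet single-cell RNA sequencing (10x Genomics, Single Cell 3′ kit, version 2). BFRTV0d comprised 3 samples of ear fibroblasts at induction day 0, and BFRTV4d, used below for comparison, comprised 3 samples at day 4 of induction. The cells were plated on Matrigel-coated dishes, and the induction medium replaced a fibroblast culture medium on the day after plating. All samples of a group share 1 table whose cell names carry no sample, so each group counted as 1 library without a replicate, no source names the animals, and the 95% intervals given below are exact and cover counting error only.

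A dividing cell passes through a gap phase (G1), DNA replication (S), a further gap (G2) and mitosis (M). The genes that prepare and carry out replication, such as those of the MCM helicase, are transcribed from late G1 into S phase, whereas most genes of the mitotic spindle, the kinetochore and cytokinesis are transcribed in G2 and mitosis. MKI67, TOP2A, CDK1 and CENPF encode a chromosome surface protein, a DNA topoisomerase, the main mitotic kinase and a kinetochore protein, and their RNA accumulates from S phase towards mitosis, so that a rule built on them weights the later part of the cycle.

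Cycling cells made up 13.3% (12.6% to 14.0%, Clopper-Pearson) of the low-keratin cells, intermediate cells 29.9% and marker-negative cells 56.8% (55.8% to 57.8%). In the cycling cells CENPF reached 322 CPM (a gene's summed UMIs in a class, scaled to the same total in each class), MKI67 and TOP2A 193 each and CDK1 112. Most cycling cells carried several of these transcripts, as 542 held UMIs of all 4 markers, 477 of 3, 242 of 2 and 32 of only 1. The marker sum of a cycling cell had a median of 7 UMIs and a highest value of 61. The threshold cut through a continuous decline, with 401 cells at a sum of 3, just outside it, and 237 cells at a sum of 4, just inside.

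**Figure D1:**
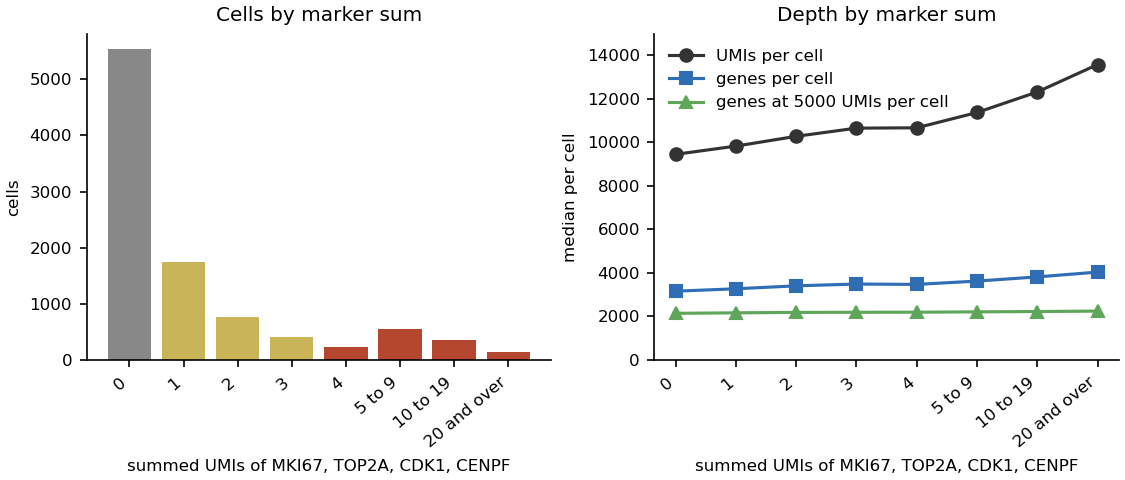
Left, number of low-keratin BFRTV0d cells in each bin of the summed UMIs of the 4 markers (grey, marker-negative; yellow, intermediate; red, cycling). Right, median UMIs per cell, median genes per cell and median genes per cell after each cell was thinned to 5000 UMIs. UMIs per cell increased with the marker sum while genes at equal depth stayed between 2146 and 2248.

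Cycling cells were deeper than marker-negative cells, with a median of 11727 against 9456 UMIs per cell, and 4.41% of them against 0.488% had more than 2 times the median UMIs of the low-keratin cells. As the rule counts UMIs, depth enters the classes. After each cell was thinned to 5000 UMIs, which left out 103 shallower cells, 6.64% of cells kept at least 4 marker UMIs and 68.3% had 0. At that equal depth the median number of genes was 2220 in cycling and 2146 in marker-negative cells. No doublet caller was run, and the part of doublets in the depth of cycling cells was not tested.

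Both classes carried the RNA of fibroblasts. Vimentin (VIM), an intermediate filament protein of mesenchymal cells, stood at 5743 CPM in cycling and 6657 CPM in marker-negative cells. The collagen I chain COL1A1 stood at 3724 and 4667 CPM and the mesenchymal transcription factor PRRX1 at 924 and 1075 CPM. The keratins of the rule were close between the classes, KRT5 at 13.4 and 13.1 CPM and KRT14 at 23.5 and 27.6 CPM. None of the 21 compared genes of the fibroblast identity list differed 2-fold. The 22 listed epithelial markers summed to 151 CPM in cycling and 136 CPM in marker-negative cells. They included KRT14, whose UMIs the rule limited, so this sum was in part set by the rule. Of the 22 markers 1 had 0 UMIs in each class. The epithelial adhesion genes EPCAM and CDH1 were at 1.68 and 1.56 CPM in cycling cells. Endothelial markers summed to 1.93 and 3.69 CPM (2 of 8 listed), immune markers to 37.5 and 40.1 CPM (6 of 9 listed), adipocyte markers to 0.998 and 1.56 CPM (3 of 6 listed) and pericyte markers to 157 and 150 CPM (5 of 6 listed). Chondrocyte markers summed to 96.4 and 111 CPM, and Schwann cell and melanocyte markers to 94.7 and 81.8 CPM, each with 3 genes listed. Of the cycling barcodes 63 (4.87%) also occurred in another table of the series, as did 211 (3.81%) of the marker-negative barcodes.

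The label of the marker-negative cells as resting was not kept. These cells still held 81.6 CPM of MCM4 and 53.9 CPM of PCNA, which encode parts of the replicative helicase and its sliding clamp, and their S phase RNA is described in full below.

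For each gene the UMIs were summed over the cells of a class, scaled to CPM, and divided to give a fold, cycling over marker-negative. Genes with at least 10 CPM in either class were compared, without the 4 rule markers. A gene under a CPM minimum in 1 class entered only through the other class, which fixed its direction and a least size of its fold. This applies to every gene below that was under the minimum used, 10 or 50 CPM, in 1 of the classes. It also applies to the list counts and medians that include such genes. Among 8274 compared genes, cycling cells held at least 2-fold more RNA of 243 (2.94% of all compared) and at least 2-fold less of 24 (0.29%). The difference was one-sided at its far end, as 107 genes were at least 4-fold higher and 0 genes at least 4-fold lower. The bulk of the transcriptome lay close together, with 92.3% of genes within 1.5-fold and a median log2 fold of 0.05. Among the higher genes 111 were in none of the 36 gene lists used below, and among the lower genes 17.

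Among genes with at least 50 CPM in either class, 12 stood highest. All 12 had at most 10.2 CPM in marker-negative cells. They passed this minimum through cycling cells alone, which fixed their direction and a least size of their folds. UBE2C, the ubiquitin-conjugating enzyme that works with the anaphase-promoting complex, led them at 348 CPM in cycling and 10.2 CPM in marker-negative cells, 34.0-fold (31.1 to 37.1). CCNF, cyclin F, followed at 33.1-fold (26.4 to 42.0) and ASPM, a spindle pole protein, at 29.8-fold (24.9 to 36.1). NUSAP1 and PRC1, which bundle spindle microtubules, were 24.6-fold (21.8 to 27.8) and 23.3-fold (20.9 to 25.9) higher. The others were DLGAP5 (20.4-fold), FAM64A (17.5-fold), the kinetochore motor CENPE (15.9-fold), the mitotic kinases AURKB and AURKA (each 15.7-fold), and the kinesins KIF23 (14.0-fold) and KIF2C (13.3-fold). Thus all 12 but FAM64A, which was in no list, came from lists of mitotic genes.

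**Figure D2:**
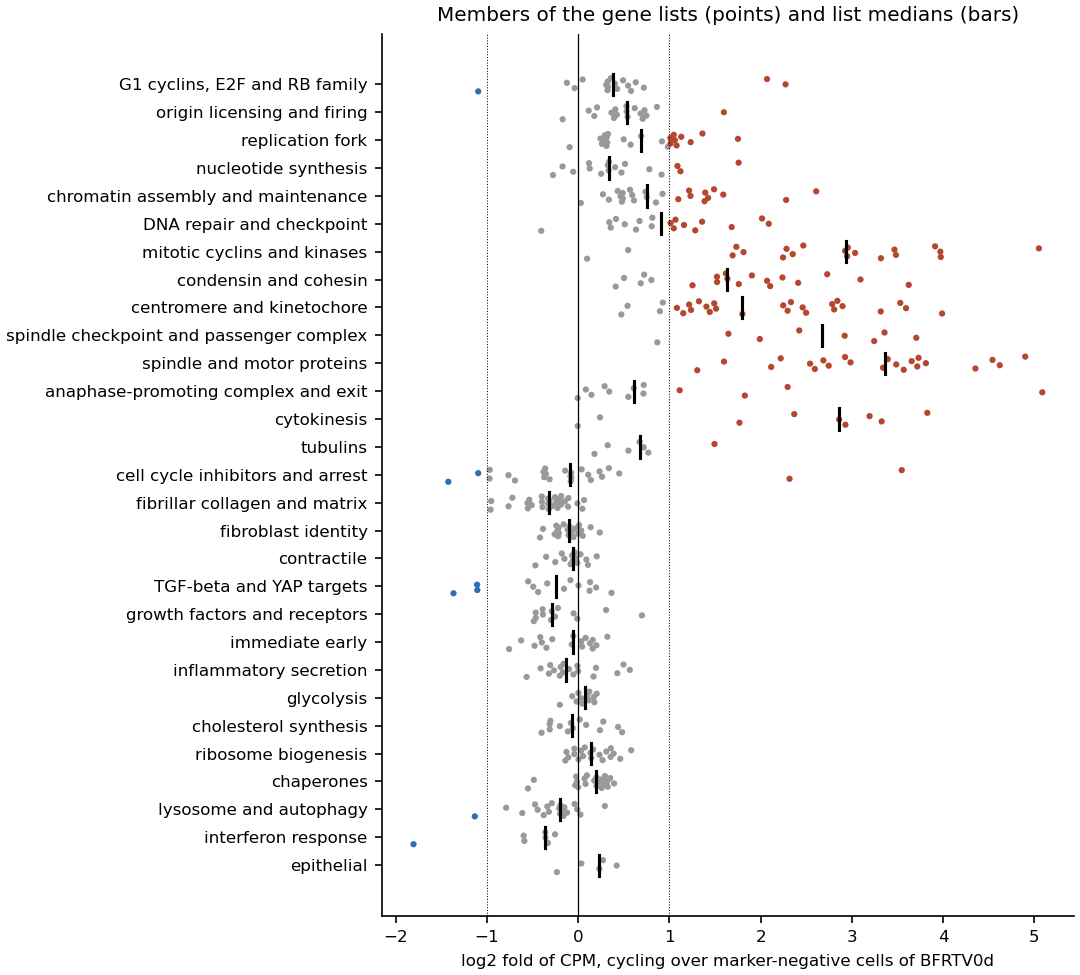
Log2 fold of CPM, cycling over marker-negative cells of BFRTV0d, for every compared member (points) of each gene list with at least 5 compared members, with the list median as a bar; red and blue points are at least 2-fold higher and lower, marked by dotted lines. Most members of the spindle, mitotic cyclin, checkpoint, centromere, condensin and cytokinesis lists lie past 2-fold. Most members of the anaphase-promoting complex, tubulin, licensing, fork and nucleotide lists lie under it. The matrix, contractile and identity lists lie near 0.

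The spindle and motor list differed as a whole. All 22 compared members were at least 2-fold higher, with a median log2 fold of 3.37 beside 0.05 over all genes. Most members, such as KIF11 below, were under 10 CPM in marker-negative cells and entered through cycling cells alone. For them the filter fixed the direction and a least size of the fold, whereas TPX2 reached 10 CPM in both classes. The lowest member still had a log2 fold of 1.31. Besides the genes above, the motor KIF11, which pushes spindle poles apart, stood at 49.7 against 4.19 CPM (11.9-fold, 10.2 to 13.8) and TPX2, a spindle assembly factor, at 145 against 13.8 CPM (10.5-fold, 9.67 to 11.4).

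Of 20 compared mitotic cyclins and kinases 18 were at least 2-fold higher (median log2 fold 2.94). Members such as CCNF, AURKA and AURKB above and CCNB1 and PLK1 below had under 10 CPM in marker-negative cells. They entered through cycling cells alone, so the filter fixed their direction, and the count and median rest in part on it. Among members that reached 10 CPM in both classes, CDC25B and PLK4 were past 2-fold and WEE1 and PKMYT1 were not. Cyclin B1 (CCNB1), the partner of CDK1 at mitotic entry, stood at 74.9 against 9.65 CPM, 7.76-fold (6.99 to 8.61). PLK1, a kinase of mitotic entry and spindle formation, stood at 48.8 against 3.24 CPM, 15.0-fold (12.8 to 17.8). The spindle checkpoint kinase TTK was 11.2-fold (9.18 to 13.7) and the centrosome kinase NEK2 11.1-fold (9.53 to 12.8) higher. The 2 members that stayed under 2-fold were WEE1 (log2 fold 0.10) and PKMYT1 (0.55), both kinases that hold CDK1 inactive.

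The machinery that attaches and separates chromosomes followed the same direction. Of the 27 compared centromere and kinetochore genes 23 were at least 2-fold higher (median log2 fold 1.80), among them CENPE and HJURP (11.6-fold, 10.3 to 12.9), which deposits the centromeric histone CENPA (7.16-fold, 6.62 to 7.76). The exceptions were CENPO, DSN1, MIS12 and SKA2, with log2 folds of 0.93, 0.47, 0.54 and 0.90. Of the 8 spindle checkpoint and passenger genes 7 were past 2-fold, among them BUB1B (13.0-fold, 10.5 to 16.4) and survivin, BIRC5 (287 against 37.9 CPM, 7.57-fold, 7.19 to 7.98). BUB3, a checkpoint protein, was the member under the threshold at 1.82-fold (1.73 to 1.92). CENPE, HJURP and BUB1B had under 10 CPM in marker-negative cells, so the filter fixed their direction.

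Condensin and cohesin genes were mixed as well. The list had 14 of 19 compared members past 2-fold (median log2 fold 1.64), including the condensin subunits SMC4 (153 against 35.6 CPM, 4.30-fold, 4.05 to 4.57) and NCAPH (4.72-fold, 4.04 to 5.53), the chromosome kinesin KIF4A (12.3-fold, 9.96 to 15.3) and separase, ESPL1 (8.54-fold, 6.72 to 10.9), which cuts cohesin. Among cohesin genes RAD21 was past 2-fold (131 against 45.5 CPM, 2.87-fold, 2.71 to 3.04), while SMC1A, SMC3, STAG1 and STAG2 were under it, with log2 folds of 0.80, 0.69, 0.41 and 0.50. The condensin II gene NCAPH2 was under it too (0.72).

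Mitotic exit and cytokinesis genes differed among themselves. Of the 13 genes of the anaphase-promoting complex and its partners 4 were past 2-fold, namely UBE2C, the activator CDC20 (114 against 23.3 CPM, 4.91-fold), the inhibitor FBXO5 (3.55-fold) and UBE2S (1706 against 789 CPM, 2.16-fold). The list median was 0.61, and no compared subunit of the complex itself reached 2-fold. Of 9 cytokinesis genes 7 were past 2-fold (median 2.86), with DEPDC1 at 14.2-fold (11.4 to 17.7), the guanine nucleotide exchange factor ECT2 at 9.15-fold (7.82 to 10.7) and its partner RACGAP1 at 7.26-fold (6.57 to 8.03). The septin SEPT11, a filament protein that cells also use outside division, had a log2 fold of 0.24, and that of SEPT9 was 0 to 2 decimals. Among the 7 tubulins only TUBB4B was past 2-fold, at 258 against 91.6 CPM (2.82-fold, 2.70 to 2.94).

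Higher genes outside the lists included several with known places in mitosis. PSRC1, a microtubule protein, stood at 14.0 against 0.482 CPM (29.0-fold, 19.3 to 45.4) and CDCA2, a subunit of a mitotic exit phosphatase, at 25.6 against 1.09 CPM (23.4-fold, 17.8 to 31.3). GAS2L3 was 13.2-fold, MXD3 12.1-fold, KNSTRN, a kinetochore-associated protein, 9.34-fold and CDCA3 8.58-fold higher. These genes were picked from the called genes after their values were seen.

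Genes of DNA replication differed far less between the classes. Of 18 compared genes of origin licensing and firing only 1, DBF4, was past 2-fold, and the list median was 0.53. DBF4, the activating subunit of the kinase that fires origins, stood at 93.9 against 31.0 CPM (3.03-fold, 2.82 to 3.25). The helicase genes MCM5, MCM7, MCM2 and MCM4 were 1.66-fold (1.52 to 1.80), 1.63-fold (1.52 to 1.75), 1.46-fold (1.36 to 1.56) and 1.45-fold (1.37 to 1.53) higher. GMNN, geminin, which blocks a further round of licensing, was at 81.9 against 75.6 CPM, and CDC6, which loads the helicase, at 12.6 against 14.2 CPM with an interval of the fold that spans 1 (0.758 to 1.04).

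Replication fork genes lay between, with 9 of 23 compared members past 2-fold and a median of 0.69. The primase subunit PRIM2 was 3.37-fold (2.88 to 3.93) higher, DNA ligase I (LIG1) 2.57-fold (2.28 to 2.89), and PCNA 2.02-fold (1.90 to 2.14) at 109 against 53.9 CPM. For nucleotide synthesis 3 of 17 were past 2-fold (median 0.34). They were the ribonucleotide reductase subunits RRM2 (193 against 57.0 CPM, 3.38-fold, 3.22 to 3.56) and RRM1 (2.18-fold, 1.98 to 2.39) and thymidine kinase, TK1 (2.13-fold, 2.01 to 2.25). Thymidylate synthase, TYMS, stood just under the threshold at 1.88-fold (1.79 to 1.98).

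Chromatin and repair genes were intermediate too. In the chromatin assembly list 10 of 25 genes were past 2-fold (median 0.75) and all 25 had a log2 fold above 0. HMGB2, a chromatin protein, led it at 352 against 57.8 CPM (6.10-fold, 5.84 to 6.37), followed by the histone chaperone ASF1B (4.86-fold, 4.44 to 5.31) and HMGB3 (3.01-fold). UHRF1, which guides maintenance methylation of DNA, was 2.81-fold (2.65 to 2.98) and lamin B1 (LMNB1) 2.68-fold higher. Of 18 repair and checkpoint genes 9 were past 2-fold (median 0.91), led by the Fanconi anaemia genes FANCI (4.25-fold, 3.76 to 4.82) and FANCD2 (4.04-fold, 3.45 to 4.74) and by RAD51AP1 (3.21-fold, 2.90 to 3.56).

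The remainder of S phase RNA in marker-negative cells differed by gene. Their CPM of MCM4 was 69.1% of that in cycling cells, of TYMS 53.1%, of PCNA 49.5% and of RRM2 29.6%, whereas their UBE2C was 2.94% and their ASPM 3.35% of the cycling level. The part of free RNA in these levels was not tested. The S phase and mitotic genes were also counted cell by cell at 5000 UMIs per cell, over the 65 listed genes of the licensing, fork and nucleotide lists and the 65 listed genes of the cyclin and kinase, checkpoint, spindle and cytokinesis lists. Cycling cells had a median of 18 UMIs of S phase genes, intermediate cells 16 and marker-negative cells 11. For mitotic genes the medians were 25, 9 and 5.

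Among the marker-negative cells 953 of 5463, or 17.4% (16.4% to 18.5%), held at least the cycling median of S phase UMIs, but 23, or 0.421% (0.267% to 0.631%), held at least the cycling median of mitotic UMIs. The same rule in the low-keratin cells of BFRTV4d gave marker-negative cells with less of both. Their median was 4 UMIs of S phase genes and 2 of mitotic genes, and 5 of 2436, or 0.205% (0.0667% to 0.478%), reached the day 0 cycling median of S phase UMIs. The day 4 table was processed and pooled as a library of its own, so library and day cannot be told apart. Low-keratin cells of day 0 without marker UMIs were thus rich in S phase RNA by comparison with those of day 4, and cycling cells of the 2 days were alike in median, at 18 and 17 UMIs.

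**Figure D3:**
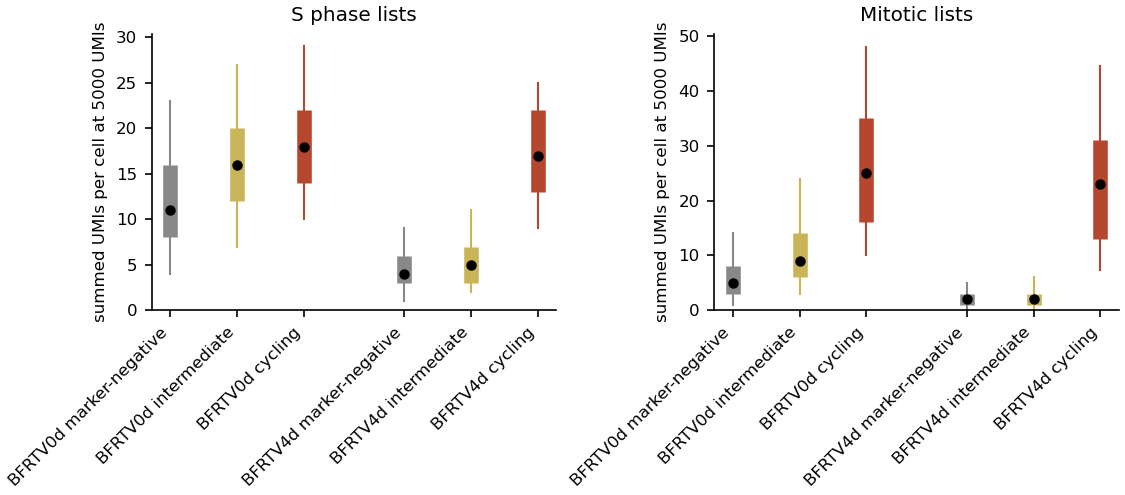
Summed UMIs per cell of the S phase lists (left) and the mitotic lists (right), each cell thinned to 5000 UMIs, in low-keratin cells of BFRTV0d and BFRTV4d by class; points are medians, thick bars the 25th to 75th and thin bars the 5th to 95th percentile of cells. Marker-negative cells had a median of 11 S phase UMIs at day 0 and 4 at day 4.

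Along the marker sum, genes reached their highest CPM at different places. The genes of this paragraph and the next were chosen for display after their values were seen, and the bins held 5534 cells at a sum of 0, 1737 at 1, 771 at 2, 401 at 3, 237 at 4, 560 at 5 to 9, 361 at 10 to 19 and 135 at 20 and over. Cyclin E2 (CCNE2), which acts at the entry to S phase, went from 37.6 CPM at a sum of 0 to 82.0 CPM at 3 and 6.99 CPM at 20 and over, so its highest bin exceeded its last 11.7-fold (6.91 to 21.7). GMNN had its highest level, 115 CPM, at a sum of 2, and MCM4 its highest, 153 CPM, at a sum of 4, with 54.4 and 73.9 CPM at 20 and over. PCNA reached 125 CPM at a sum of 4 and RRM2 212 CPM at 5 to 9. Of the 18 licensing genes 14 were highest at sums of 1 to 4, as were 11 of 23 fork genes and 10 of 17 nucleotide synthesis genes, while 2, 4 and 5 of them were highest at 20 and over. Of the 22 spindle and motor genes all 22 were highest at 20 and over.

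Most, but not all, mitotic genes were highest in the last bin. Highest there were 16 of 20 mitotic cyclins and kinases, 22 of 27 centromere genes and 16 of 19 condensin and cohesin genes. In the anaphase-promoting complex list it was 8 of 13. UBE2C went from 10.2 CPM at a sum of 0 through 57.7 CPM at 3 and 82.8 CPM at 4, on either side of the threshold, to 899 CPM at 20 and over. ASPM went from 2.41 to 134 CPM and CCNB1 from 9.65 to 155 CPM. HMGB2 increased more evenly, from 57.8 CPM at 0 to 254 CPM at 4 and 479 CPM at 20 and over. As whole lists, licensing genes summed to 550 CPM at a sum of 0, 928 CPM at 4 and 665 CPM at 20 and over, fork genes to 677, 1094 and 938 CPM, and nucleotide synthesis genes to 1181, 1747 and 1900 CPM. All 3 lists were thus lowest at a sum of 0, and the nucleotide list, unlike the others, was highest in the last bin.

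**Figure D4:**
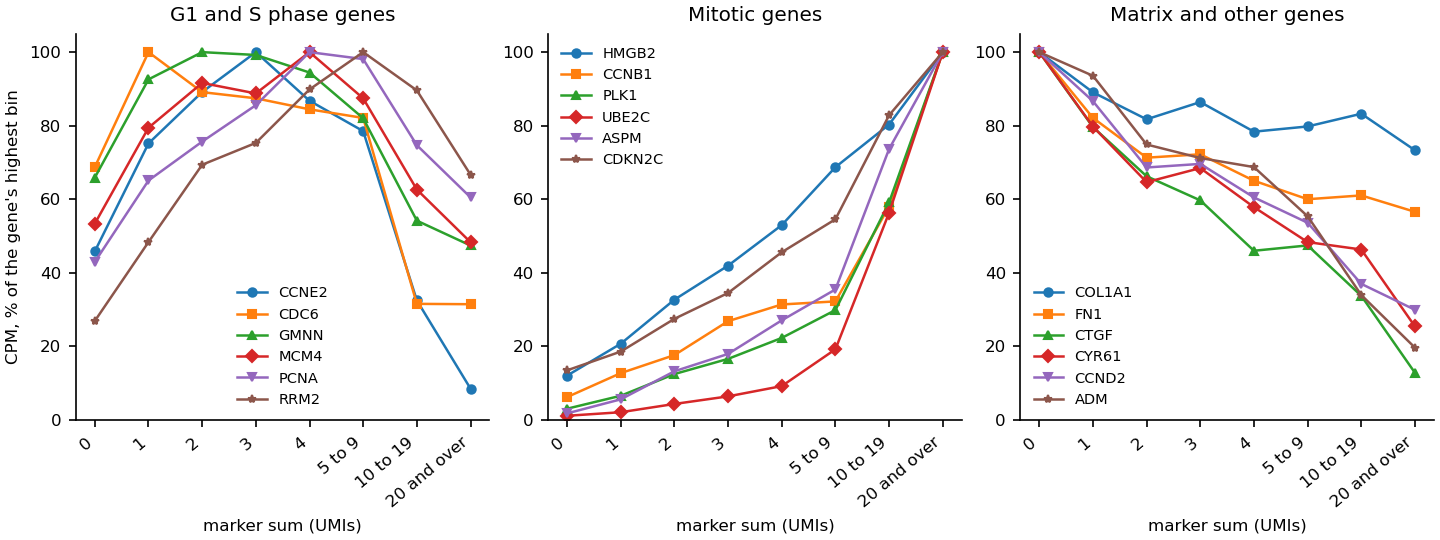
CPM in bins of the marker sum as a percentage of each gene's highest bin, for 6 genes of G1 and S phase (left), 6 genes that increased towards high sums (middle) and 6 genes that were highest at a sum of 0 (right). CCNE2 was highest at a sum of 3, MCM4 at 4 and RRM2 at 5 to 9, whereas UBE2C and CCNB1 were highest at 20 and over and CTGF at 0.

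When each cycling cell was placed by whether its S phase or its mitotic lists held more UMIs, 412 cells (31.9%) were led by S phase genes and 881 by mitotic genes. The cut is a point on a range and not a border between types, as 298 cells lay within 10% of it. The median depth was 11695 and 11745 UMIs per cell, and the marker sums had medians of 5 and 10. Of 8194 genes compared without the lists that made the cut, 32 were at least 2-fold higher in S-led and 57 in mitotic-led cells.

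Higher in S-led cells were CCNE2 (91.9 against 25.9 CPM, 3.55-fold, 3.05 to 4.13), DTL (48.0 against 18.1 CPM, 2.65-fold, 2.19 to 3.21), which marks replication licensing proteins for destruction, and the transcription factor E2F1 (38.7 against 18.7 CPM, 2.07-fold, 1.70 to 2.53). Higher in mitotic-led cells were UBE2C (469 against 92.7 CPM), securin, PTTG1 (141 against 47.0 CPM), CENPA (157 against 41.0 CPM) and TUBB4B (316 against 135 CPM). PIF1 was higher there too (10.0 against 0.972 CPM, 10.3-fold, 4.28 to 32.4), on 5 UMIs in S-led cells. It reached 10 CPM in mitotic-led cells alone, which fixed its direction. Of the 24 genes that were lower in cycling than in marker-negative cells, 14 were higher in S-led than in mitotic-led cells with an interval of the fold above 1, 1 was lower with an interval below 1, and for 9 the interval spanned 1. CTGF, a secreted matrix protein, stood at 142 CPM in S-led and 52.9 CPM in mitotic-led cells beside 210.2 CPM in marker-negative cells, RSPO3, a secreted enhancer of WNT signalling, at 21.6 and 10.6 beside 34.7 CPM, and MAP1LC3C at 73.8 and 33.9 beside 102 CPM. For these 3 genes the S-led cells thus lay between the other 2 groups.

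The regulators of G1 differed little. In the list of G1 cyclins, E2F and RB genes 2 of 18 were past 2-fold higher, MYBL2 (199 against 47.4 CPM, 4.20-fold, 3.98 to 4.42), a transcription factor of late cell cycle genes, and the repressor E2F8 (14.6 against 3.02 CPM, 4.83-fold, 3.94 to 5.94), and 1 was lower. Cyclin D2 (CCND2) was that gene, at 85.0 against 182 CPM (2.14-fold lower, 2.02 to 2.26). Its relative cyclin D1 (CCND1) was abundant in both classes at 833 and 805 CPM, and CDK4 was 1.41-fold (1.36 to 1.45) higher. Cyclin D1, which joins growth signals to the start of the cycle, was thus near equal where cyclin D2 differed.

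The list of cell cycle inhibitors and arrest genes went in both directions, with 2 of 25 compared genes higher, 2 lower and a list median of -0.08. CDKN2C and CDKN2D, inhibitors of CDK4 and CDK6, were higher at 120 against 24.0 CPM (4.98-fold, 4.64 to 5.35) and 21.2 against 1.82 CPM (11.7-fold, 9.31 to 14.8). Both went up with the marker sum, CDKN2C from 24.0 to 178 CPM and CDKN2D from 1.82 to 33.4 CPM. The lower genes were CDKN1C (11.0 against 29.4 CPM, 2.68-fold lower, 2.29 to 3.15), a broad inhibitor of cyclin-dependent kinases, and CCND2, which this list also held. CDKN1A, the p53-induced inhibitor p21, stood at 136 and 144 CPM (1.06-fold lower, 1.01 to 1.11).

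Lower genes in cycling cells were fewer and their folds smaller. Of the 24, 17 were in no list. Among genes with at least 50 CPM in either class the lowest were CTGF at 81.6 against 210.2 CPM (2.58-fold lower, 2.43 to 2.73) and FAM46A at 167 against 408 CPM (2.44-fold lower, 2.35 to 2.55). MAP1LC3C, an autophagy protein (2.19-fold lower), CYR61 at 213 against 459 CPM (2.15-fold lower, 2.08 to 2.23), INHBA, the activin A subunit (2.15-fold lower), ADM, adrenomedullin (2.14-fold lower), and CCND2 followed. The other 5 of the 12 lowest did not reach 2-fold, namely the gap junction gene GJA1 (1.99), SPP1 (1.99), KLF4 (1.96), TNC (1.94) and PTGES (1.92).

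CTGF, CYR61 and INHBA were the 3 of 14 compared TGF-beta and YAP target genes past 2-fold lower, and none was past 2-fold higher (median -0.25). Along the marker sum CTGF went from 210.2 to 26.9 CPM, 7.80-fold (5.97 to 10.4) from first to last bin, CYR61 from 459 to 117 CPM and ADM from 119 to 23.5 CPM. IL11, a cytokine in the same list, was 1.29-fold higher (1.27 to 1.31). The list therefore did not move as a block.

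For some of the lower genes a few cells held much of the RNA. ISG15, an interferon-induced ubiquitin-like protein, was at 10.0 against 35.0 CPM (3.49-fold lower, 2.97 to 4.13), with 23.0% of its 161 UMIs in cycling cells and 7.03% of its 1892 UMIs in marker-negative cells found in 10 cells. It was the 1 of 7 compared interferon response genes past 2-fold (median -0.36). For MMP13, a collagenase, 10 cells held 64.1% of 78 UMIs in cycling and 24.1% of 769 UMIs in marker-negative cells. For TAC1, a neuropeptide precursor, they held 45.7% of 140 and 14.3% of 1136 UMIs. These shares cannot be compared between the classes. The 10 cells are a larger part of 1293 cycling than of 5534 marker-negative cells, and fewer UMIs also raise the share.

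Matrix genes were slightly lower without reaching 2-fold. Of 28 compared genes of the collagen and matrix list 26 had a log2 fold below 0, with a median of -0.32 and 0 members past 2-fold. FN1, fibronectin, stood at 614 against 1012 CPM (1.65-fold lower, 1.61 to 1.68), TNC, tenascin C, at 95.6 against 186 CPM (1.94-fold lower), SPARC at 802 against 1177 CPM (1.47-fold lower) and COL1A1 1.25-fold lower (1.24 to 1.26). COL1A1 went from 4667 CPM at a marker sum of 0 to 3422 CPM at 20 and over and FN1 from 1012 to 573 CPM.

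Other lists showed no member past 2-fold in either direction. They were the fibroblast identity (21 genes compared, median -0.10), contractile (15, -0.06), growth factor (13, -0.29), immediate early (17, -0.05), inflammatory secretion (18, -0.13), glycolysis (12, 0.07), cholesterol synthesis (14, -0.07), ribosome biogenesis (20, 0.14), chaperone (21, 0.20) and epithelial (5, 0.23) lists. Among them DUSP1, a phosphatase of MAP kinases, was 1.69-fold lower (1.61 to 1.77) at 117 against 198 CPM. The receptor gene MET was 1.62-fold higher (1.42 to 1.86) and the nucleolar protein gene NOP56 1.38-fold higher (1.33 to 1.43). Smooth muscle actin, ACTA2, stood at 217 and 223 CPM (1.03-fold lower, 0.989 to 1.07). The compared epithelial genes included KRT14, whose UMIs the rule limited. In the lysosome and autophagy list MAP1LC3C was the 1 of 20 past 2-fold, and CTSK, cathepsin K, was 1.73-fold lower (1.66 to 1.80).

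The same rule was applied to cells that had no part in the choice above, each set against its own marker-negative cells. The 934 day 0 barcodes of the same table with over 2 keratin UMIs held 245 cycling cells (26.2%), and at 5000 UMIs per cell 20.1% (17.6% to 22.8%) of them had at least 2 marker UMIs against 15.6% (14.8% to 16.3%) of the low-keratin cells. In BFRTV4d 71 of 3250 low-keratin cells were cycling, 2.18% (1.71% to 2.75%), and at equal depth 3.49% (2.88% to 4.20%) had at least 2 marker UMIs. The BFRTV4d barcodes with over 2 keratin UMIs held 1630 cycling cells of 6953. BFRTV8d, at day 8 of induction, held 68 low-keratin cells, of which 0 were cycling, which allows a share of up to 4.41% (3 counts of 68).

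Of the 243 higher genes, 94 reached 10 CPM in the marker-negative day 0 keratin cells, 53 in the marker-negative low-keratin cells of BFRTV4d and 77 in its marker-negative keratin cells, and all of these were higher in the cycling cells there. The other higher genes passed the CPM minimum, if at all, through cycling cells alone, where a direction is fixed by the filter. The share of all compared genes that were higher was 58.2%, 72.1% and 71.9%. The lower genes were less uniform, with 16 of 17, 10 of 15 and 13 of 15 in the same direction, where 41.8%, 27.9% and 28.1% of all genes were lower. With an interval below 1 there were 13, 6 and 13 of them. The folds of CTGF and CCND2 in low-keratin cells of BFRTV4d were -0.70 and -0.81 on the log2 scale. Those of CYR61 and INHBA were 0.05 and 0.38, with intervals of the fold that span 1 (0.890 to 1.19 and 0.789 to 2.04). In the keratin cells of BFRTV4d CYR61 was 1.33-fold higher in cycling cells (1.29 to 1.37), whereas CTGF, CCND2 and INHBA were lower.

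The medians of the lists differed between the sets. The licensing list had a median log2 fold of 0.53 in the low-keratin cells of day 0, 1.42 in the keratin cells of day 0, 2.22 in the low-keratin cells of BFRTV4d (10 genes compared) and 2.13 in its keratin cells (15 genes). A gene could enter the comparison through its level in cycling cells alone. MCM4 had log2 folds of 0.53, 1.33 and 2.41 in the first 3 sets, and its marker-negative levels were 81.6 CPM at day 0 and 3.43 CPM in the low-keratin cells of BFRTV4d. The spindle and motor list had medians of 3.37, 3.36, 5.00 and 4.20 in the same order, the mitotic cyclins and kinases 2.94, 3.38, 4.81 and 3.74, and the centromere and kinetochore list 1.80, 2.27, 4.48 and 3.12. The matrix list, with a median of -0.32 at day 0, had -0.25, -0.13 and -1.29 in the other sets. Keratin cells of BFRTV4d can include cells of different types in the 2 classes, whose part in the last value was not tested.

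**Figure D5:**
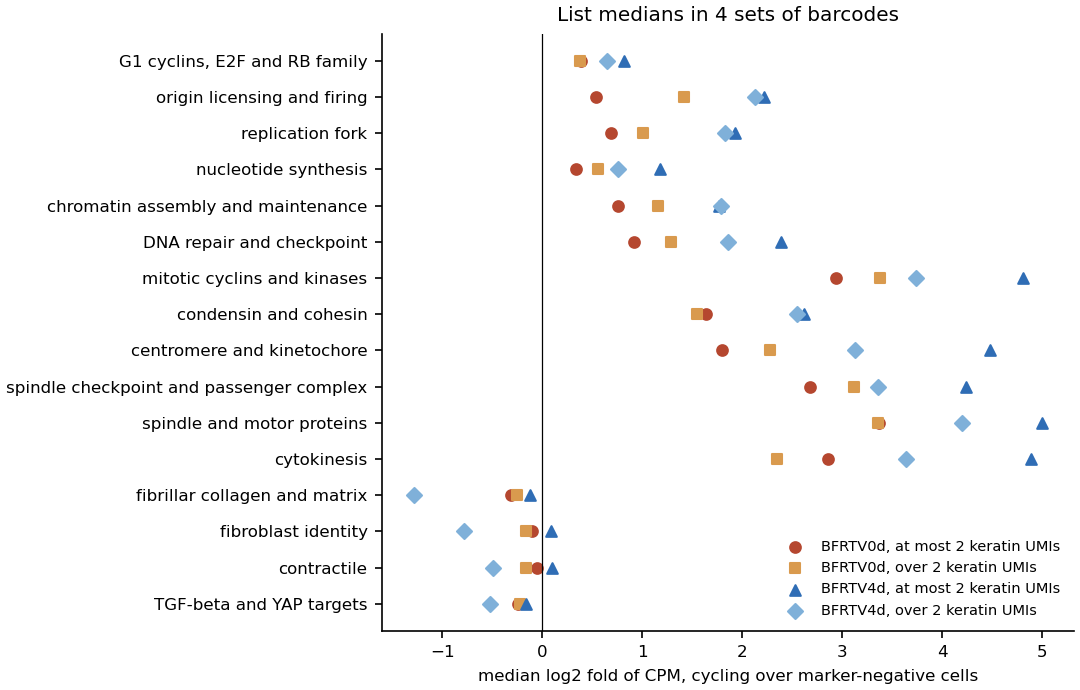
Median log2 fold of CPM, cycling over marker-negative cells, of 16 gene lists in 4 sets of barcodes, each set compared within itself. The low-keratin cells of BFRTV0d (circles) had the lowest median of the 4 sets for the licensing, fork and nucleotide lists, at 0.53, 0.69 and 0.34, and also for the chromatin, repair, mitotic cyclin, centromere and checkpoint lists.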

How the data were processed

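Values were raw UMI counts per gene and cell barcode, which the authors deposited as 1 pooled table per group without normalization. FastQC 0.10.1 and Cell Ranger, the latter with no version, are listed in the processing notes of the submitters. The genome build is not given in the sources used here. The BFRTV0d table held 14840 genes (14494 found by symbol in RefSeq of assembly ARS1.2, used for names only), each with a UMI in at least 11 cells, and 117500853 UMIs, 3444 to 86812 per barcode with a median of 10070. Canonical ribosomal protein genes were not among them (0 listed).

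UMIs were summed per class and scaled to CPM of the table's genes. Folds are ratios of CPM with exact 95% intervals (binomial, conditional on the sum of both counts), and a count of 0 was set at a floor of 3. Groups were not tested, since each is 1 pooled library. PCR copies are removed by UMIs, but molecules of 1 cell are not independent, and intervals cover counting error only. Thinning drew 5000 UMIs per cell without replacement with a fixed seed. Python 3.11.15, numpy 2.4.6, pandas 2.3.3, scipy 1.17.1 and matplotlib 3.10.9 were used, and edgeR 4.0.16 in R 4.3.3 gave the TMM and median-of-ratios factors. The procedure was tested on simulated data.

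Named genes were the 12 highest and 12 lowest folds among genes that have a symbol and reach 50 CPM in either class, up to 6 members of each of the 36 lists with the largest fold, any member at least 2-fold against its list's median, and the rule's own genes. Further members, those under 2-fold in a high list and the genes shown along the marker sum or between S-led and mitotic-led cells were chosen after their values were seen. The members, lists and rule were chosen with earlier results of these data known. A list's counts and median are descriptions beside those of all genes. Some members of the lists are not reported here by name. Alternatives changed the marker threshold, depth, keratin limit, scaling, weighting of cells and filter on low CPM.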

Additional observations from a re-analysis of the deposited data

Results flagged for a closer look

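For 2 named genes the direction was opposite in the low-keratin cells of BFRTV0d and BFRTV4d, with intervals on opposite sides of 1. NREP had a log2 fold of cycling over marker-negative cells of -1.03 at day 0 and 0.90 at day 4. NR4A1, an immediate early nuclear receptor, had -0.62 at day 0 and 1.11 at day 4. The day 4 values rest on 71 cycling cells, and the difference between the days was not tested.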

How the results depend on the processing

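No paired analysis was possible because the samples of each group share 1 table and its cell names carry no sample, which also left no replicate to leave out. Genes at least 2-fold higher numbered 243 and ranged from 190 to 275 under the other class thresholds, depths, keratin limit, scalings and weighting of cells. Genes at least 2-fold lower numbered 24, but 6 with cycling cells defined by at least 2 marker UMIs and 57 by at least 8. Without a minimum CPM 699 genes were higher and 528 lower, and with at least 50 CPM 98 and 7, as more or fewer genes were compared. TMM and median-of-ratios factors gave 234 higher and 28 lower genes each. Named genes kept their direction in all 1323 recomputed values, but of the 147 values per setting 117 left the interval of the value reported at a threshold of 2 UMIs, 102 at 8 UMIs, 123 after thinning and 34 within 10000 to 20000 UMIs, against 0 to 10 under the other settings. Of 316 recomputed list medians 298 stayed within 0.25 on the log2 scale. The share of cycling cells was 25.3% at a threshold of 2 and 6.60% at 8 UMIs. It was 12.6% among cells with 0 keratin UMIs. At 5000 UMIs per cell it was 6.64% with the threshold kept at 4 marker UMIs and 15.6% at 2, and that of marker-negative cells was 68.3%. The planned count of promoter motifs was not run, since no sequence table was at hand. Depth limits what 0 marker UMIs can say of 1 cell, and genes under 10 CPM were not compared.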
